A study of Mus musculus with 21 samples.

Results

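The comparison set skin against liver of wild-type mice that had eaten a high-fat diet for most of their adult life, across all genes of the array. It was taken by the sample titles: 3 wild-type skin arrays and 3 wild-type liver arrays, 6 of the 21 arrays of the series. Both groups were male C57Bl6/J mice, fed the high-fat diet from 5 to 44 weeks of age and 45 weeks old at sampling, and both carried the wild-type alleles. The other arrays of the series hold epididymal fat of the same kind of mouse, and all 3 tissues of mice without JNK1, the kinase encoded by Mapk8. All mice ate the high-fat diet, so no value here separates the diet from the tissue. RNA was extracted from whole tissue with guanidinium thiocyanate, and 0.2 ug of it was labelled with Cy3 for 1-colour Agilent arrays. The series text speaks of quadruplicates, whereas 3 wild-type arrays of each tissue were analysed here. The labels do not say which arrays came from the same mouse, so p-values measure the spread between these samples only, which may be technical.

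Skin is a layered organ. Basal keratinocytes of the epidermis divide and make the keratins 5 and 14, then leave the basement membrane, switch to keratins 1 and 10, and fill with proteins that are crosslinked into the cornified envelope. Hair follicles, sebaceous glands, melanocytes, a collagen-rich dermis, dermal fat and, in the mouse, a thin sheet of skeletal muscle lie with the epidermis. Liver consists mainly of hepatocytes, which secrete plasma proteins and lipoproteins, run the urea cycle, make glucose and bile acids, and oxidise and conjugate foreign compounds. Sinusoidal endothelial cells and Kupffer cells, the resident macrophages, line its blood spaces. Because each sample is bulk tissue, fewer cells of a type and less RNA per cell cannot be told apart.

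Promoter sequence was set beside the direction of the difference. The letters immediately before the start of transcription are shown for 2 genes of the liver program, 2 of the epidermis and 1 of muscle, 150 bases each, from RefSeq promoters on build GRCm38.p6. Capitals mark GTTAAT or its complement ATTAAC in Alb and Fgb, TGAGTCA, a match to the AP-1 motif TGANTCA, in Lor, TATAAA in Lor and Krt10, and CAGCTG, an E box of the MyoD type, in Mylpf.
Alb (chr5:90460720-90460869, plus strand): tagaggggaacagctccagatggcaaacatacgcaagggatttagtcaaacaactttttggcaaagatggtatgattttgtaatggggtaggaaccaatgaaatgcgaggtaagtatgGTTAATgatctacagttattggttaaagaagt
Fgb (chr3:83049864-83050013, minus strand): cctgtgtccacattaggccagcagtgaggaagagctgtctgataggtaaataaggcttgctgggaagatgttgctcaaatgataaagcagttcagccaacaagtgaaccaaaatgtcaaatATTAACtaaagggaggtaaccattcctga
Lor (chr3:92083143-92083292, minus strand): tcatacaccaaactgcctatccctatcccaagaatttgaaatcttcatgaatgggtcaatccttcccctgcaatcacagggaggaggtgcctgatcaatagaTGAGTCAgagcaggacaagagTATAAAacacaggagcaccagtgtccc
Krt10 (chr11:99389365-99389514, minus strand): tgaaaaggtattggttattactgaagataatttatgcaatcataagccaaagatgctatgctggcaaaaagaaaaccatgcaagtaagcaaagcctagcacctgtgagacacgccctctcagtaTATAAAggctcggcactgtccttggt
Mylpf (chr7:127211458-127211607, plus strand): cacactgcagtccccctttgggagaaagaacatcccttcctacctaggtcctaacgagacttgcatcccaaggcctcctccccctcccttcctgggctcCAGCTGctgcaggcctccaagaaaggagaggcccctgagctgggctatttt

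Of the capitals, with -1 the last base before the start, GTTAAT or its complement began at -32 in Alb and -29 in Fgb, the TATA letters at -27 in Lor and -26 in Krt10, the AP-1 letters at -48 in Lor, and the E box at -51 in Mylpf. A RefSeq promoter, from 250 bases before to 50 after the start, was found for 10345 of the 14140 genes tested. Both strands were searched, so a palindrome such as CAGCTG counts once. GTTAAT stood in 4.35% of promoters of genes at least 4-fold higher in skin, in 9.89% of those at least 4-fold lower, in 3.68% of those tested and not called, and in 7.2% of all promoters. CAAAGTNCA, the letters of the HNF4 direct repeat, stood in 0.691%, 4.01%, 1.17% and 1.41% of the same sets. CAGCTG was found in 21.6% of promoters of the genes higher in skin, 15.3% of those lower, 14% of those not called and 16.1% of all. TGANTCA was found in 9.47% and 8.1% of promoters of genes higher and lower in skin, 4.24% of those not called and 7.93% of all. TATAAA was present in 15.1%, 14.8%, 7.13% and 14.2% of the same sets. The median observed over expected ratio of CpG was 0.518 where skin was higher and 0.431 where skin was lower, 0.797 where no difference was called and 0.389 over all promoters. For the last 3 features the genes called thus stood nearer to all promoters of the table than the genes not called did. The called genes were drawn from the tested genes, whose promoters held GTTAAT in 4.6%, CAAAGTNCA in 1.3% and CAGCTG in 15.2%. Promoters of tested genes held TGANTCA in 5.73% and TATAAA in 8.82%, with a median CpG ratio of 0.74. A match to these letters is a description and not a binding site.

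Values are log2 intensities from which the 75th percentile of the array was subtracted, so 0 is that percentile and a difference of 1 is a 2-fold change. They rank samples for a gene and do not rank genes, since every gene has its own probe. Of 27561 gene names on the array, 14140 were well above background on at least 3 of the 6 arrays and were tested, and 10425 of these were well above it on all 6. Skin arrays set 39.5, 45.9 and 47% of probes well above background (skin WT 1, 2 and 3), and liver arrays 46.1, 46.8 and 48.2%. Across tested genes, arrays correlated at 0.95 to 0.99 within skin, 0.969 to 0.988 within liver and 0.589 to 0.634 between the tissues, a description over genes that are not independent.

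More genes differed between the tissues than did not pass the test. limma called 8014 genes at an adjusted p below 0.05, 56.7% of those tested, with 3750 higher in skin (26.5%) and 4264 lower (30.2%). A difference of at least 4-fold was called for 2006 genes higher in skin (14.2%) and 1646 lower (11.6%), and the median over all tested genes was -0.15. The arrays of the tissues did not overlap for 68.2% of genes: all skin arrays lay above all liver arrays for 4404 (31.1%) and below them for 5238 (37%). On no liver array were 819 tested genes well above background, and on no skin array 738. For these a fold is written as "at least N-fold": the mean of the brighter tissue over the detection floor or the signal of the dim probe, whichever was higher. Any such share of a gene list is to be read against these percentages.

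**Figure D1:**
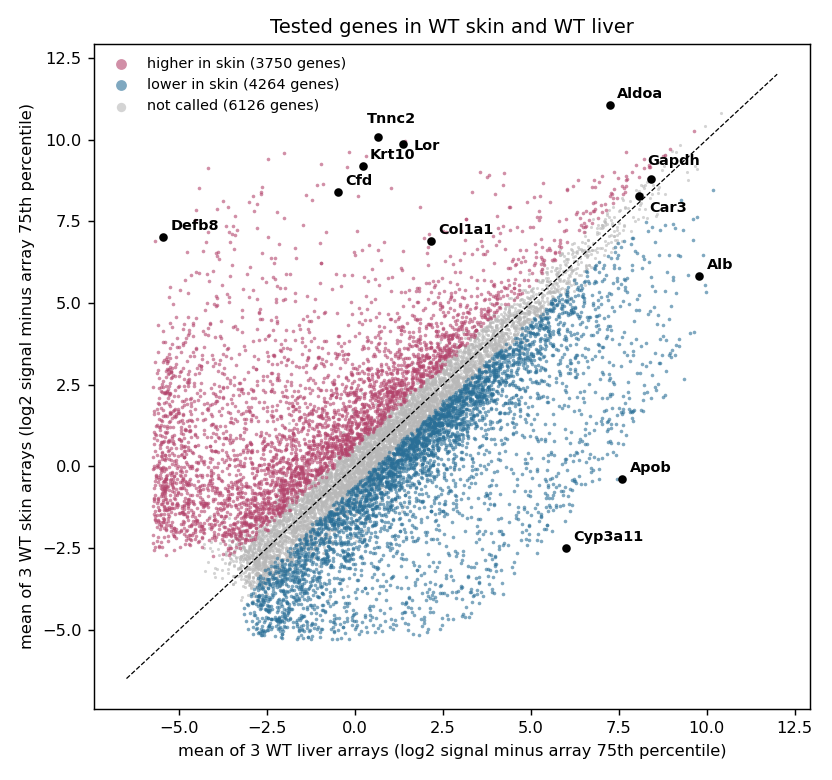
Mean log2 intensity of 14140 tested genes in wild-type skin (vertical axis, 3 arrays) against wild-type liver (horizontal axis, 3 arrays), less the 75th percentile of each array, with the line of equality dashed. Points are genes, coloured by call (3750 higher in skin, 4264 lower in skin, 6126 not called), and the spread away from the line is wide in both directions.

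Markers fitted the labels on every array. Krt10, the partner keratin of suprabasal epidermis, had 9.28, 9.13 and 9.15 in skin, against 0.26, 0.29 and 0.09 in liver (difference 8.98, SE 0.18, adjusted p = 1.3e-06). Alb, which encodes serum albumin, had 5.6, 6.43 and 5.45 in skin, against 9.8, 10.28 and 9.27 in liver (difference -3.96, SE 0.36, adjusted p = 6.8e-05). No skin array overlapped a liver array for either gene. Ttr, the thyroid hormone carrier of plasma, was well above background on all liver arrays, at 3.2, 2.97 and 3.73, and on no skin array, and was at least 71.9-fold lower in skin (adjusted p = 9.2e-06). The liver arrays were not free of skin and muscle transcripts, and 1 of them held most. Lor, which encodes loricrin, the main protein of the cornified envelope, had 10.12, 9.66 and 9.78 in skin, against -0.43, -0.27 and 4.79 in liver, so liver WT 3 lay far above the other liver arrays.

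**Figure D2:**
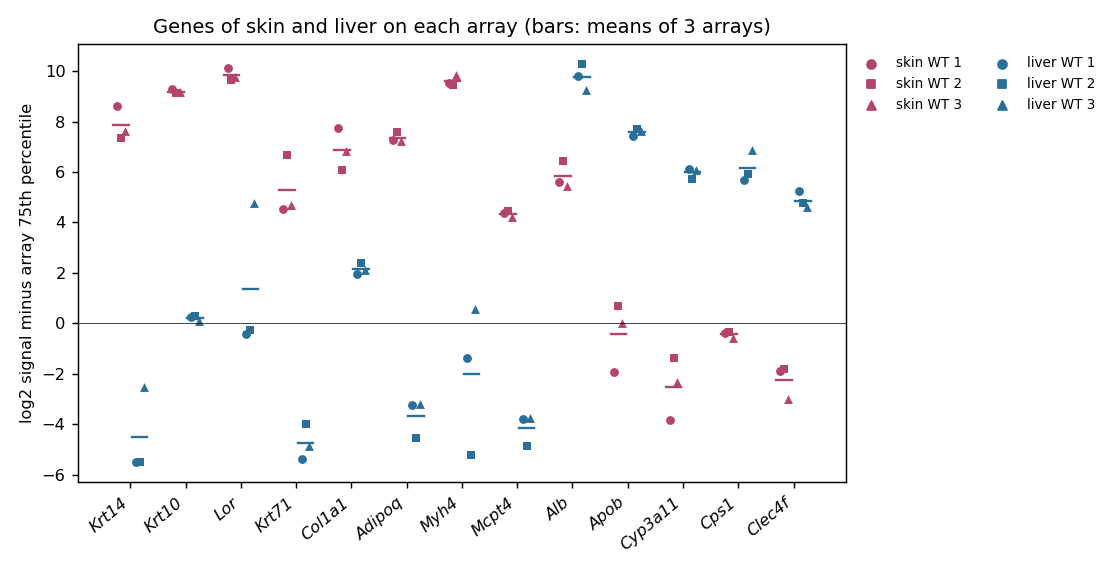
Log2 intensity, less the 75th percentile of each array, for 13 marker genes, with skin arrays left of liver arrays and bars at the means (3 arrays each). Keratins, Col1a1, Adipoq, Myh4 and Mcpt4 were high in skin, and Alb, Apob, Cyp3a11, Cps1 and Clec4f in liver, while liver WT 3 stands above the other liver arrays for Lor.

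Of the epidermal differentiation genes called higher in skin, 24 were well above background on at least 1 liver array. Liver WT 3 lay above the mean of the other liver arrays for 22 of these 24, and the median excess over the 24 was 4.49. Being bright on liver WT 3 alone was enough for a gene to be chosen. Such counts are therefore set in part by the choice of genes. Among genes chosen in the same way, liver WT 3 lay above that mean for 21 of 22 skeletal muscle genes (median 2.99). It did so for 7 of 7 antimicrobial genes (median 2.22). Of collagens and other dermal matrix genes chosen in this way 10 of 26 lay above it (median -0.06), and of adipocyte genes 3 of 9 (median -0.18). Means over the 44 tested epidermal differentiation genes were 4.76, 4.02 and 4.18 in skin, against -4.19, -4.07 and -1.47 in liver. Means over the 24 skeletal muscle genes were 7.2, 7.21 and 7.44 in skin, against -1.58, -3.49 and -0.12 in liver. Every skin mean of these lists stayed far above every liver mean. Without liver WT 3, limma called 43 of the 44 epidermal differentiation genes and all 24 muscle genes higher in skin. Where these transcripts came from was not tested.

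Basal keratinocyte genes were higher in skin, 15 of 16 tested, with none lower and a median difference of 4.49. Krt14, the type I keratin of the basal layer, had 8.6, 7.33 and 7.63 in skin, against -5.51, -5.51 and -2.51 in liver (difference 12.36, SE 0.82, adjusted p = 1.3e-05), and its partner Krt5 had 9.74, 9.16 and 9.28 in skin, against -4.27, -4.13 and 0.98 in liver (difference 11.86, SE 1.31, adjusted p = 0.00019). Each was well above background on 1 of 3 liver arrays, so the size of the difference rests in part on unmeasured liver values. With normexp background correction it was 9.42 for Krt14 and 9.93 for Krt5. Trp63, the transcription factor that maintains the stratified epithelium, was seen above background only in skin, at 3.35, 2.7 and 2.91, at least 87-fold higher (adjusted p = 1.3e-06). Col17a1, the hemidesmosomal collagen that anchors basal cells, was likewise at least 227-fold higher (adjusted p = 1.8e-06), and Itgb4, the integrin chain it binds beside, differed by 5.72 (adjusted p = 2.4e-05). The anchoring fibril collagen Col7a1 was higher by 5.2 (adjusted p = 9.5e-06). Dst, which encodes dystonin, was the member not called, at -0.61, 0.48 and 0.45 in skin, against 0.23, 0.23 and 0.60 in liver (adjusted p = 0.55), and its difference turned to 4.77 (adjusted p = 4.9e-06) with its probes averaged.

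Of the differentiation genes of the upper epidermis, 40 of 44 tested were higher in skin and none lower, with a median of 8.55, or 7.17 with unmeasured liver values set at their bound. Of the 44, 16 were well above background on no liver array and so were tested through skin alone. Of the 7 seen on all 6 arrays, 6 were higher. Krt1, the suprabasal type II keratin, was at 7.66, 6.51 and 6.51 in skin and above background on no liver array, at least 1304-fold higher (adjusted p = 1.3e-06). Skin WT 1 was the highest of the 3 for Krt1, as it was for Krt14 and Lor. Lor itself differed by 8.49 (SE 1.3, adjusted p = 0.0011), with liver WT 3 apart from the other liver arrays, as given above. In the late cornified envelope family, Lce1m had 8.88, 8.26 and 8.37 in skin, against -5.45, -5.47 and -2.44 in liver (difference 12.96, SE 0.79, adjusted p = 9e-06) and was well above background on 1 of 3 liver arrays. With normexp background correction its difference was 9.99. Copies of this family are near-identical, so their probes may not separate them. Krtdap, a secreted keratinocyte differentiation protein, had 8.41, 8.39 and 8.4 in skin, against -5.36, -5.31 and 2.63 in liver (difference 11.08, SE 1.99, adjusted p = 0.0024), with 1 of 3 liver arrays above background. The other 4 tested members were not called. Serpinb12, a clade B serine protease inhibitor, had 0.91, 0.90 and 1.1 in skin, against -5.41, -5.44 and 1.0 in liver, and Lce3c had 2.0, 0.75 and 1.18 in skin, against -4.29, -3.97 and 2.61 in liver, each with liver WT 3 within or above the range of skin. Serpinb12 was called without liver WT 3 (6.39, adjusted p = 1.6e-05), and Lce3c was called without liver WT 3 (5.44, adjusted p = 0.00014). Serpinb12 and Lce3c were each well above background on 1 of 3 liver arrays.

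Genes of desmosomes and other cell junctions were divided between the tissues, with 17 of 25 higher in skin and 7 lower (median 2.82). Of the 25, 8 were well above background on no liver array, and of the 13 seen on all 6 arrays 7 were higher and 5 lower. Plakophilin 1 (Pkp1), a desmosomal plaque protein of stratified epithelia, differed by 8.74 (adjusted p = 7.8e-05), and desmoglein 1a (Dsg1a) was at least 81.5-fold higher (adjusted p = 4.3e-06). Among the members lower in skin were genes known from simple epithelia. Plakophilin 2 (Pkp2) was lower by a difference of -1.36 and desmoglein 2 (Dsg2) of -3.52 (adjusted p = 0.00082 and 3.7e-05), and Cldn2, a pore-forming claudin, was at least 88.5-fold lower (adjusted p = 1.5e-06). Connexins split in the same manner. Gjb5 was at least 192-fold higher in skin (adjusted p = 1.3e-06), while Gjb1, the gap junction protein of hepatocytes, had -1.21, -2.07 and -2.64 in skin, against 3.75, 3.76 and 3.04 in liver, and Gjb2 had 2.48, 2.38 and 1.45 in skin, against 6.38, 6.48 and 6.56 in liver (differences -5.49 and -4.37, adjusted p = 2.1e-05 and 1.7e-05). Keratins of simple epithelia went with liver: Krt8 and Krt18, the keratin pair of hepatocytes, differed by -6.46 and -6.15 (adjusted p = 3.8e-06 and 6.6e-06), and 3 of 6 genes of that list were lower in skin, against 1 higher, Krt23. Pkp1 was well above background on 1 of 3 liver arrays.

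Hair keratin and inner root sheath genes were higher in skin for 21 of the 22 tested of 40 listed, with none lower and a median of 7.46, or 5.79 with bounds. Of the 22, 16 were well above background on no liver array and so were tested through skin alone. Of the 3 well above it on all 6 arrays, 2 were higher in skin. Krt71, an inner root sheath keratin, had 4.52, 6.67 and 4.69 in skin, against -5.37, -4.0 and -4.87 in liver, and was above background on no liver array and at least 430.3-fold higher in skin (adjusted p = 9.9e-06). Krt35, of the hair shaft, was at 1.99, 3.94 and 2.6 in skin and at least 78.6-fold higher (adjusted p = 6.2e-06). Krt27 was at 1.86, 4.54 and 2.39 in skin and at least 83.6-fold higher (adjusted p = 3.7e-05). Skin WT 2 was the highest skin array for each of these 3 keratins, and the list averaged 1.04, 3.4 and 1.6 on skin WT 1, 2 and 3. The means of the epidermal differentiation list on the same arrays lay closer together, within 1 unit. Which stage of the hair cycle the skin was in is not given in the labels.

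Sebaceous gland genes were higher in skin for 9 of 11 tested (median 4.43), with none lower. Krt79, a keratin of gland ducts and upper follicle, had 7.33, 6.06 and 6.25 in skin, against -3.99, -3.14 and -4.6 in liver (difference 10.46, SE 0.47, adjusted p = 2.8e-06), with 1 of 3 liver arrays above background. Fa2h, the fatty acid 2-hydroxylase, and Scd3, a stearoyl-CoA desaturase of the gland, were at least 339-fold and at least 139-fold higher (adjusted p = 2.9e-06 and 3.7e-06). Of the genes that build the lipid barrier between corneocytes, 15 of 21 were higher and 2 lower (median 4.17). Of these 21, 9 were well above background on no liver array and so were tested through skin alone. Of the 10 seen on all 6 arrays, 4 were higher and 2 lower. Alox12e, an epidermal lipoxygenase, had 6.96, 6.23 and 6.45 in skin and was at least 1026-fold higher (adjusted p = 1.5e-06). Acer1, an alkaline ceramidase, differed by 10.45 (adjusted p = 7e-06), with 1 of 3 liver arrays above background, and Elovl4, which makes very long-chain acyl groups of ceramides, was at least 119.6-fold higher (adjusted p = 1.3e-06). The 2 members lower in skin were Ces1d, a carboxylesterase, at -2.45, and Sdr9c7, at -1.06 (adjusted p = 6.7e-05 and 0.0017). Of the melanocyte genes 7 of 13 could be tested, 5 were higher in skin and 1 lower. Mlana and Dct, both of the pigment organelle, were at least 26.6-fold and at least 21.7-fold higher (adjusted p = 1.3e-06 and 2.4e-06), while Tyr, the rate-limiting enzyme of melanin synthesis, was not tested.

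The antimicrobial list split between the tissues, with 10 higher in skin, 6 lower and 4 not called of 20 (median 0.91). Beta-defensins led the skin side. Defb8 had 7.03, 6.88 and 7.11 in skin and was above background on no liver array, which made it at least 1412-fold higher (adjusted p = 6.1e-07), and Defb6 was at least 576-fold higher (adjusted p = 1.6e-06). Il1f5, an antagonist of the interleukin 36 family, was at least 123-fold higher (adjusted p = 7e-06). On the liver side stood Hamp, which encodes the iron hormone hepcidin, at 2.41, 1.21 and 1.32 in skin, against 7.58, 7.91 and 7.99 in liver (difference -6.18, SE 0.35, adjusted p = 6.7e-06). Lcn2, which binds bacterial siderophores, differed by -5.11 (adjusted p = 4.8e-06), with 2 of 3 skin arrays above background. Of the alarmins S100a8 and S100a9, S100a8 was not called (0.69, adjusted p = 0.11) and S100a9 was lower in skin, with a difference of -1.25 (adjusted p = 0.0065). The call of S100a9 was lost in the fit of all groups (adjusted p = 0.29, or 0.39 with the slide as a block). S100a8 was called without skin WT 1 (0.98, adjusted p = 0.016).

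Dermal collagen and matrix genes were higher in skin for 29 of 37 tested, lower for 4, with a median of 2.95. Col1a1, a chain of type I collagen, had 7.75, 6.09 and 6.83 in skin, against 1.96, 2.39 and 2.1 in liver (difference 4.74, SE 0.41, adjusted p = 5.1e-05), and its partner Col1a2 differed by 4.4 (adjusted p = 2.2e-05). Lox, which crosslinks collagen, and Comp, a matrix protein that binds it, were at least 10.6-fold and at least 17.3-fold higher (adjusted p = 2.4e-06 and 1.3e-06). The matrix genes lower in skin included the plasma forms Fn1, fibronectin, at -2.91, and Vtn, vitronectin, at -5.0 (adjusted p = 0.0002 and 3.7e-05). Dcn, the proteoglycan decorin, had 7.0, 7.87 and 7.83 in skin, against 6.52, 6.91 and 6.9 in liver, and was not called (adjusted p = 0.0503), though it was called without skin WT 1 (1.07, adjusted p = 0.0034). Fibroblast genes were higher for 15 of 18 and lower for 2, Dpp4 and Igfbp4 (median 4.21), and Pi16, a marker of adventitial fibroblasts, differed by 8.19 (adjusted p = 1.3e-06). Basement membrane genes were higher for 13 of 15 and lower for 1, Col18a1, the collagen that yields endostatin (-2.85, adjusted p = 0.00012). Matrix proteases and their inhibitors were higher for 13 of 17 and lower for 3 (median 2.43), led by Timp4 and Mmp3, at least 115-fold and at least 81.7-fold higher (adjusted p = 3.3e-06 and 1.1e-05).

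Transcripts of striated muscle were among the largest differences of the comparison. All 24 genes of the skeletal muscle list were higher in skin, with a median of 9.23, or 9.0 with bounds. Myh4, the fast myosin heavy chain 2B, had 9.51, 9.46 and 9.83 in skin, against -1.38, -5.22 and 0.56 in liver (difference 11.61, SE 1.28, adjusted p = 0.00019). Ckm, the muscle creatine kinase, had 8.19, 7.73 and 8.35 in skin, against -2.67, -5.4 and -0.97 in liver (difference 11.1, SE 0.99, adjusted p = 6e-05). Both were well above background on 2 of 3 liver arrays, and liver WT 2 was the lowest for each. Ryr1, the calcium release channel, had even liver values, at 5.32, 4.4 and 4.68 in skin, against -2.63, -2.82 and -2.65 in liver, and differed by 7.5 (SE 0.27, adjusted p = 1.5e-06). Smooth muscle genes were higher for 8 of 10 (median 2.66), Acta2, smooth muscle actin, by 4.42 (adjusted p = 4.1e-06), and Mylk was lower (-1.23, adjusted p = 0.0019). The smooth muscle list is not free of striated muscle, since Des and Synpo2 serve both. Whether the muscle sheet under the skin was taken with every sample is not stated in the labels.

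Adipocyte genes were higher in skin for 13 of 19 tested and lower for 2, with a median of 4.42. Adipoq, which encodes the fat cell hormone adiponectin, had 7.28, 7.6 and 7.22 in skin, against -3.22, -4.55 and -3.2 in liver (difference 11.02, SE 0.39, adjusted p = 1.5e-06), with 2 of 3 liver arrays above background. Plin1, the coat protein of large lipid droplets, and Lep, which encodes leptin, were at least 661-fold and at least 91.3-fold higher (adjusted p = 1.3e-06 and 6.2e-06). Some genes often used as fat markers were close to level. Car3, carbonic anhydrase 3, had 8.28, 8.35 and 8.23 in skin, against 7.98, 8.24 and 7.97 in liver, and Dgat2, which makes triglyceride, had 8.51, 8.27 and 8.24 in skin, against 8.19, 8.11 and 8.16 in liver. Neither was called (differences 0.22 and 0.19, adjusted p = 0.34 and 0.41), and for Car3 the highest liver array lay just above the lowest skin array. With all probes of a gene averaged, Car3 turned to -0.68 (adjusted p = 0.039). Thrsp, a regulator of fatty acid synthesis, was lower in skin (-3.05, adjusted p = 3.5e-05).

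Resident immune and vascular cells left different signatures in the 2 tissues. Kupffer cell genes were lower in skin for 9 of 11 (median -3.49), none higher, and Clec4f, a lectin made by these cells in rodents, had -1.89, -1.81 and -3.0 in skin, against 5.24, 4.76 and 4.6 in liver (difference -7.1, SE 0.36, adjusted p = 4.5e-06). Sinusoidal endothelial genes were lower for 10 of 12 (median -1.98), none higher, with Clec4g at -5.93 and the scavenger receptor Stab2 at -3.89 (adjusted p = 2.1e-06 and 8.4e-06). The largest difference of that list was that of Aass, a lysine-degrading enzyme not particular to these cells (-6.89, adjusted p = 1.3e-06). Markers of endothelium in general were nearer to level, with 6 higher, 2 lower and 8 not called (median 0.48), the largest being Cldn5, an endothelial claudin (2.12, adjusted p = 0.0011). General macrophage and myeloid genes were also near level, with 3 higher, 3 lower and 10 not called (median -0.04). Csf1r, the receptor for macrophage growth factor, differed by -0.01, and C1qa by 0.01 (adjusted p = 0.99 and 0.98). Leaving out skin WT 1 or liver WT 1 turned the myeloid median to 0.05 and 0.09, and quantile scaling to 0.20. One of the 2 lower endothelial calls was lost without skin WT 2, skin WT 3, liver WT 1 or liver WT 2. Clec4f was well above background on 2 of 3 skin arrays.

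Mast cell genes were higher in skin for 5 of 6 tested and lower for 1, with a median of 6.22, or 4.47 with bounds. Of the 6, 4 were well above background on no liver array, and the 1 seen on all 6 arrays was the lower one. Mcpt4 and Cma1, chymases of connective tissue mast cells, were at least 224-fold and at least 106-fold higher (adjusted p = 1.8e-06 and 1.5e-06), and Hdc, which makes histamine, was lower (-0.80, adjusted p = 0.014), a call that was lost without skin WT 3 or liver WT 2 (adjusted p = 0.057 and 0.058). In the Langerhans and dermal dendritic cell list 4 were higher and 3 lower of 7. Cd207, which encodes langerin, was lower in skin, at 0.21, 0.88 and 0.83 in skin, against 2.47, 2.6 and 1.87 in liver (difference -1.67, SE 0.29, adjusted p = 0.0021). H2-M2 was lower too (-2.12, adjusted p = 0.00011), while Epcam, an adhesion protein shared by Langerhans cells and other epithelia, was higher (3.72, adjusted p = 3.5e-05). Of the T and natural killer list 2 were higher, 3 lower and 8 not called (median -0.24), and of the B cell and MHC class II list 4, 3 and 3 (median 0.28). Zap70, a kinase of the T cell receptor, was lower by a difference of -3.79 (adjusted p = 1.9e-05), and the call of Cd3e, a chain of that receptor (0.71, adjusted p = 0.032), was lost without skin WT 3, liver WT 1 or liver WT 3 (adjusted p = 0.086 to 0.093). The median of the T and natural killer list lay between -0.59 (without liver WT 1) and 0.20 (without liver WT 2) with 1 array left out. Schwann cell and nerve genes were higher for 3 of 6, with S100b at 4.49 (adjusted p = 0.0002). Erythroid genes were lower for 2 of 4, and of the cholangiocyte and stellate cell list 2 were higher and 5 lower of 10, with Spp1, osteopontin, at -6.15 (adjusted p = 0.00023). Epcam and S100b were each well above background on 2 of 3 liver arrays. Spp1 was well above background on 2 of 3 skin arrays.

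**Figure D3:**
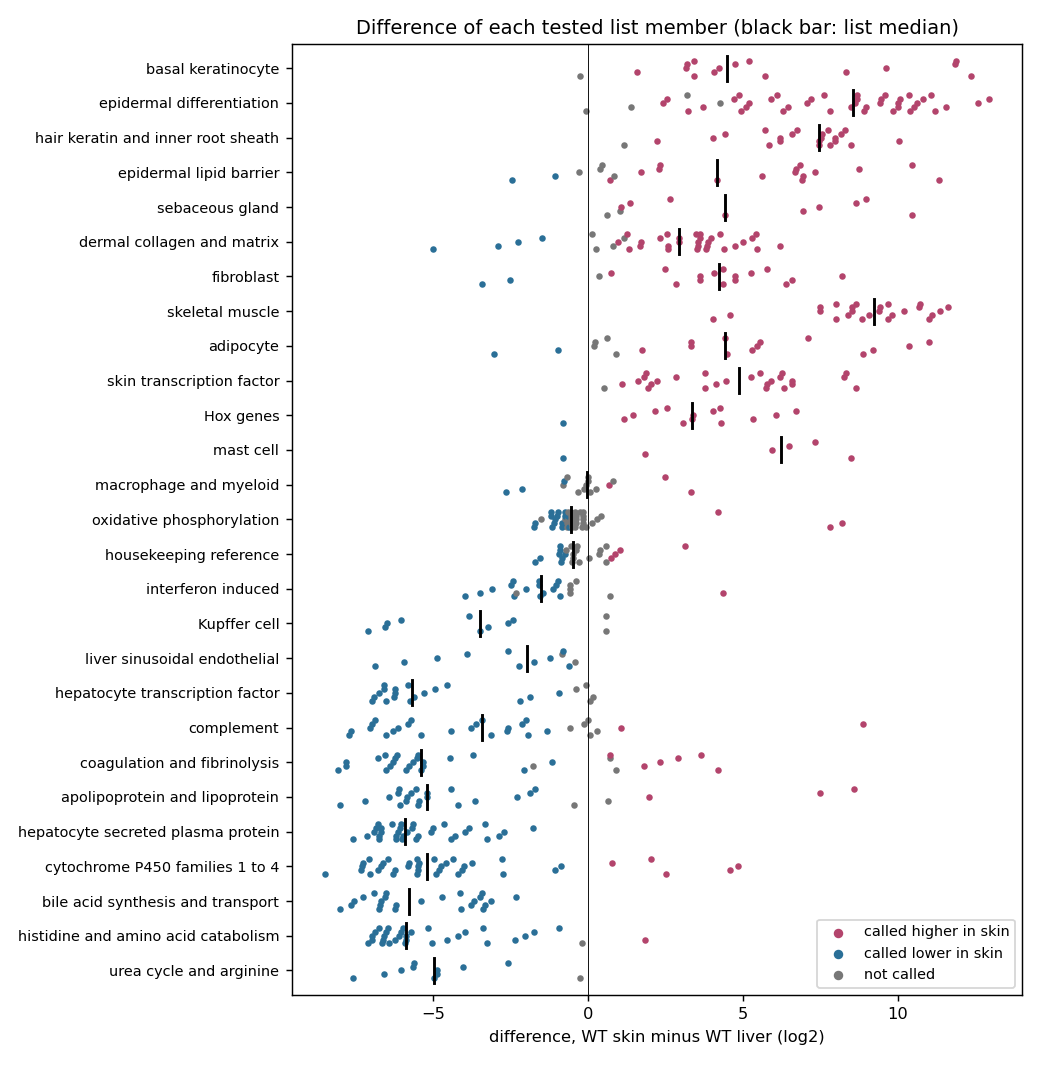
Differences, skin minus liver in log2 units, of the tested members of 27 gene lists, each point a gene and each bar the median of the list. Skeletal muscle and epidermal differentiation lie highest, and plasma proteins, amino acid catabolism and bile acid genes lowest.

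All 34 tested genes for hepatocyte plasma proteins were lower in skin, with a median difference of -5.91. Their means were 2.41, 2.32 and 1.82 on the skin arrays, against 7.63, 7.75 and 7.44 on the liver arrays. Ttpa, the tocopherol transfer protein, had -3.33, -1.48 and -2.07 in skin, against 5.11, 5.25 and 5.5 in liver (difference -7.58, SE 0.45, adjusted p = 8.2e-06), with 2 of 3 skin arrays above background. Serpina6, which carries corticosteroids in plasma, had 0.06, 0.02 and -0.65 in skin, against 6.86, 6.49 and 6.8 in liver (difference -6.91, SE 0.26, adjusted p = 1.7e-06). Hepatocyte transcripts were also measured in skin: apart from Ttr and Ttpa, every tested member of the list was well above background on all 3 skin arrays. For Alb the skin arrays lay at 5.6, 6.43 and 5.45, against a mean of 2.08 on the 3 epididymal fat arrays used (fat WT 2 left out), and for the heme carrier Hpx at 6.08, 5.06 and 4.83, against 0.35 in fat. Whether this RNA was made in skin was not tested.

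Genes of lipoproteins followed with 20 of 25 lower and 3 higher (median -5.22). Apob, the scaffold of very low density lipoprotein, had -1.92, 0.70 and 0.00 in skin, against 7.44, 7.72 and 7.63 in liver (difference -8.0, SE 0.61, adjusted p = 2.8e-05), the largest negative difference among genes well above background on all 6 arrays. Mttp, which loads lipid onto Apob, was at least 33.8-fold lower (adjusted p = 3e-06). The 3 members higher in skin were Apol6, Apod and Pltp, at 8.59, 7.49 and 1.98 (adjusted p = 1.5e-06, 0.00019 and 0.0016). Apoe, made by hepatocytes, macrophages and many other cells, was not called (-0.45, adjusted p = 0.26). Apol6 and Apod were each well above background on 1 of 3 liver arrays.

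Complement genes were lower in skin for 22 of 29 and higher for 2 (median -3.42). Components of the membrane attack complex were among the lowest: C9 and C8b were at least 88.6-fold and at least 114-fold lower, and Hc, which encodes C5, differed by -7.05 (adjusted p = 1.7e-06, 3.8e-06 and 2.4e-06). The initiator C1q was not called for any of its 3 chains, C1qa, C1qb and C1qc, at 0.01, -0.12 and 0.05 (adjusted p = 0.98, 0.71 and 0.88). Cfd, the fat cell product adipsin that cleaves factor B, was higher, at 8.93, 8.27 and 7.99 in skin, against -0.94, 0.10 and -0.66 in liver (difference 8.89, SE 0.36, adjusted p = 2e-06). Cd55, which breaks up complement convertases on cells, was the other member higher (1.06, adjusted p = 0.015), and its call was lost without liver WT 2 (adjusted p = 0.055). Coagulation and fibrinolysis genes were lower for 22 of 31 and higher for 6 (median -5.41). Circulating factors on the liver side included F5, factor V, at least 142-fold lower, and F11, factor XI, at -6.51 (adjusted p = 7.5e-06 and 1.8e-06). Among the members higher in skin were proteins that act at cells: F3, tissue factor, at 3.65, Thbd, thrombomodulin, at 2.33, and Plau, urokinase, at 2.9 (adjusted p = 1.7e-05, 0.00011 and 0.00011). Acute phase genes were lower for 15 of 19 and higher for 2 (median -5.11). The metallothioneins Mt2 and Mt1 were the 2 that were higher (2.27 and 1.76, adjusted p = 4.2e-05 and 0.00024). With its probes averaged, Mt1 differed by 0.91 and was not called (adjusted p = 0.072). Hp, haptoglobin, was not called (-0.64, adjusted p = 0.11). Hp was called without liver WT 3 (-0.92, adjusted p = 0.026). F11 was well above background on 2 of 3 skin arrays. Plau was well above background on 1 of 3 liver arrays.

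The enzymes that dispose of nitrogen were lower in skin. For the urea cycle and arginine 10 of 11 genes were lower (median -4.97), and for amino acid catabolism 30 of 32 (median -5.89). Cps1, the mitochondrial entry enzyme of the urea cycle, had -0.38, -0.34 and -0.58 in skin, against 5.68, 5.93 and 6.88 in liver (difference -6.6, SE 0.33, adjusted p = 3.9e-06). Otc, the next enzyme, differed by -7.58 (adjusted p = 1e-05). Tdo2, which opens the tryptophan ring in liver, had -1.74, -0.76 and -1.07 in skin, against 5.92, 5.89 and 5.94 in liver (difference -7.1, SE 0.28, adjusted p = 1.8e-06). Hal, histidase, which makes urocanic acid in the epidermis as well as in liver, had 5.51, 4.72 and 4.96 in skin, against 6.46, 6.18 and 5.4 in liver (difference -0.95, SE 0.34, adjusted p = 0.048), and this call was lost without skin WT 2, skin WT 3, liver WT 1 or liver WT 2 (adjusted p = 0.12 to 0.15). The enzyme that follows it, Uroc1, urocanase, had 1.04, -0.26 and -0.29 in skin, against 6.43, 6.34 and 5.8 in liver (difference -6.03, SE 0.40, adjusted p = 1.3e-05). Mat2a was not called (-0.18, adjusted p = 0.44). Otc was well above background on 2 of 3 skin arrays.

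Glucose production and glycogen genes were lower for 17 of 20 (median -4.73). G6pc, the catalytic subunit of glucose-6-phosphatase, differed by -6.36, and Gcgr, the glucagon receptor, by -5.71 (adjusted p = 8e-06 and 1e-05). Pck2, the mitochondrial PEP carboxykinase, was higher in skin (2.03, adjusted p = 0.00013). All 24 bile acid genes tested were lower (median -5.79, -4.67 with bounds). Cyp7a1, the rate-limiting enzyme of bile acid synthesis, was at least 56.3-fold lower, and Abcb11, the export pump of the canalicular membrane, had -2.04, -1.25 and -1.74 in skin, against 6.08, 6.13 and 5.73 in liver (difference -7.66, SE 0.26, adjusted p = 8.7e-06 for Cyp7a1 and 1.5e-06 for Abcb11). Slco1b2, an uptake transporter of hepatocytes, differed by -8.01 (adjusted p = 5e-05). Abcb11 and Slco1b2 were each well above background on 2 of 3 skin arrays.

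Cytochrome P450 genes of families 1 to 4 were lower in skin for 33 of 38 and higher for 5 (median -5.2). Cyp3a11, a major drug oxidase of mouse liver, had -3.84, -1.36 and -2.3 in skin, against 6.14, 5.73 and 6.1 in liver (difference -8.49, SE 0.58, adjusted p = 1.5e-05), with 2 of 3 skin arrays above background. Cyp4a14, a fatty acid omega-hydroxylase, had -0.60, -1.31 and -1.62 in skin, against 6.58, 5.95 and 5.95 in liver (difference -7.34, SE 0.33, adjusted p = 2.7e-06). The 5 that were higher in skin were Cyp2b19, a keratinocyte enzyme, and Cyp2b10, at least 18.9-fold and at least 16.6-fold higher, and Cyp1b1, Cyp2s1 and Cyp4b1, at 2.51, 2.02 and 0.76 (adjusted p = 2.3e-05, 2.1e-06, 3.6e-05, 0.026 and 0.04). Cyp2b19 and Cyp2b10 are close paralogues, and their probes may not separate them. The call of Cyp2s1 was lost without skin WT 1 (adjusted p = 0.075), and that of Cyp4b1 was lost without skin WT 1, skin WT 2, skin WT 3, liver WT 2 or liver WT 3 (adjusted p = 0.071 to 0.098), so that 3 of the family genes were called higher without skin WT 1. Conjugation enzymes were lower for 31 of 38 and higher for 6 (median -3.38). Ugt2b36, a glucuronosyltransferase, differed by -7.47, and Sult2b1, the cholesterol sulfotransferase of the epidermis, was at least 60.5-fold higher (adjusted p = 1.4e-06 for Ugt2b36 and 1.8e-05 for Sult2b1).

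Fatty acid oxidation and ketone body genes were lower in skin for 27 of 33 and higher for 6, with a smaller median of -1.8. Oxct1, which uses ketone bodies outside the liver, was higher in skin (3.55, adjusted p = 1.1e-05). Ppara, the fatty acid sensing receptor, differed by -5.29 (adjusted p = 5e-06). Peroxisome genes were lower for 19 of 28 and higher for 2 (median -1.27), with Phyh, which starts the breakdown of phytanic acid, at -3.64 (adjusted p = 4.8e-06). Between 0 and 2 peroxisome genes were called higher with 1 array left out, 0 without liver WT 1. Lipid synthesis genes were divided. Of 37 genes 10 were higher, 19 lower and 8 not called (median -0.98). Fasn, fatty acid synthase, had 8.43, 7.41 and 7.37 in skin, against 8.63, 8.84 and 8.27 in liver, and was not called (difference -0.85, adjusted p = 0.066), though it was called without skin WT 1 (-1.19, adjusted p = 0.0038). Enzymes that lengthen and desaturate polyunsaturated chains were lower, with Elovl2 at -6.97, Fads2 at -5.88 and Fads1 at -4.91 (adjusted p = 1.5e-06, 9e-06 and 9.9e-06), and Elovl7 and Fads3 were higher (5.73 and 5.15, adjusted p = 1.3e-06 and 3.3e-06). Elovl2 was well above background on 2 of 3 skin arrays.

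Lipid droplet genes were higher for 9 of 17 and lower for 5 (median 0.71). Lipe, hormone-sensitive lipase, was higher by 4.49 (adjusted p = 7.8e-06), and Hsd17b13 and Cideb, droplet proteins of hepatocytes, were lower (-6.96 and -6.6, adjusted p = 2.3e-06 and 8.8e-06). Cholesterol synthesis and uptake genes were near level as a group, 8 higher, 9 lower and 10 not called (median -0.29). Sqle, squalene epoxidase, was higher (2.29, adjusted p = 0.00089). Only 5 of this list were called higher without liver WT 1, liver WT 2 or liver WT 3. The 2 acyltransferases that esterify cholesterol went opposite ways: Soat1 was higher (2.63, adjusted p = 0.00012) and Soat2 at least 32.8-fold lower (adjusted p = 8.2e-06). Retinoid and vitamin D genes were higher for 9 of 26 and lower for 16 (median -1.59). Receptors on the skin side included Vdr, the vitamin D receptor, at least 29.1-fold and Rarg at least 19.5-fold higher (adjusted p = 2.7e-06 and 7.2e-05). Rdh16, a retinol dehydrogenase, was at least 76.2-fold lower and Lrat, which stores retinol as ester in stellate cells, at least 13.8-fold lower (adjusted p = 1.3e-06 and 3.2e-05).

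**Figure D4:**
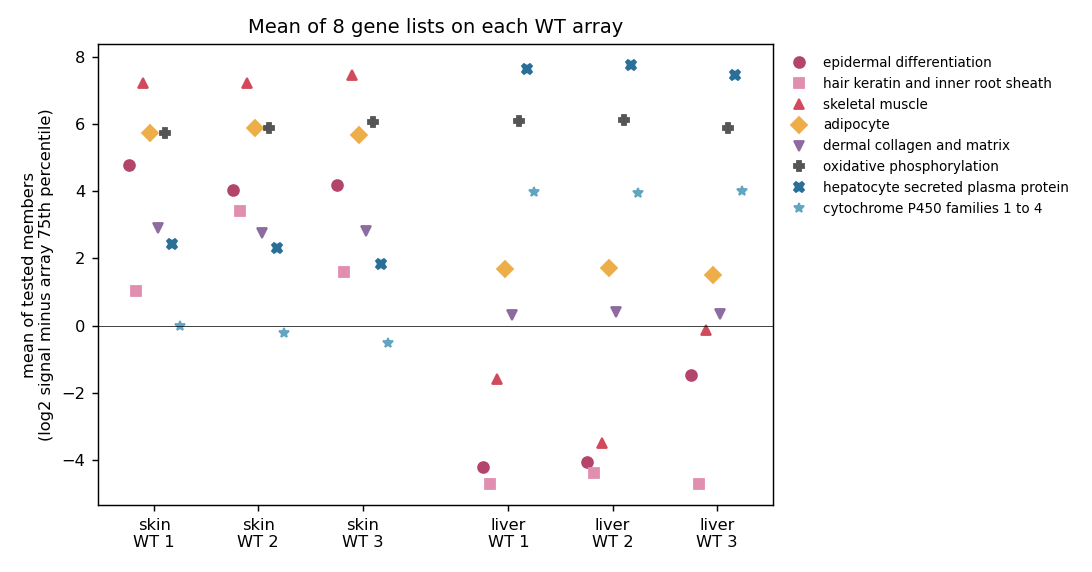
Mean log2 intensity, less the 75th percentile of each array, of the tested members of 8 gene lists on each of the 3 skin arrays (left) and 3 liver arrays (right). Skin WT 2 is the highest skin array for hair keratins, and liver WT 3 the highest liver array for epidermal differentiation and skeletal muscle.

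Transcription factors followed their tissues. Of the hepatocyte factors 18 of 22 were lower in skin and none higher (median -5.68, -4.85 with bounds). Of these 22, 8 were well above background on no skin array, and of the 9 seen on all 6 arrays 6 were lower. Hnf4a, the nuclear receptor of the hepatocyte program, was well above background on no skin array and at 1.87, 1.41 and 2.63 in liver, at least 30.4-fold lower in skin (adjusted p = 6.7e-06), and Onecut2 was at least 104-fold lower (adjusted p = 1.5e-06). Cebpa and Cebpb, which serve liver and fat and skin alike, were not called (-0.07 and 0.16, adjusted p = 0.84 and 0.57). Of the skin factors 25 of 26 were higher and none lower (median 4.86, 3.6 with bounds). Of these 26, 13 were well above background on no liver array, and of the 10 seen on all 6 arrays 9 were higher. Gata3, needed for hair and barrier, was at 4.56, 3.28 and 3.54 in skin and at least 152-fold higher, and Tfap2c, an AP-2 factor of keratinocytes, at least 84.8-fold (adjusted p = 1.3e-05 and 1.6e-06). Hox genes, which keep positional identity, could be tested for 14 of 39, and 13 were higher in skin, such as Hoxa7 and Hoxc6, at least 35.5-fold and at least 19-fold (adjusted p = 1.5e-06 and 2.3e-06). Of the 14, 8 were well above background on no liver array and so were tested through skin alone. Of the 3 well above it on all 6 arrays, 2 were higher and 1 lower. Hoxb6 was the only one lower (-0.82, adjusted p = 0.026), and turned to 1.04 (adjusted p = 0.0096) with its probes averaged; its call was lost without skin WT 2, liver WT 1 or liver WT 2 (adjusted p = 0.065 to 0.096). Of Wnt, Hedgehog and BMP genes 19 of 26 were higher and 3 lower (median 2.85), the first being the follicle and epidermal ligand Wnt10a (8.91, adjusted p = 2.9e-05). On no liver array were 10 of these genes well above background, and of the 11 seen on all 6 arrays 6 were higher and 1 lower. Wnt10a was well above background on 1 of 3 liver arrays.

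Families in which each tissue has its own isoform showed the split gene by gene. Of the glucose transporters, Slc2a4, the insulin-responsive carrier of muscle and fat, had 5.93, 5.3 and 5.78 in skin, against 0.39, 0.52 and 0.18 in liver (difference 5.31, SE 0.24, adjusted p = 2.8e-06). Slc2a2, the carrier of hepatocytes, had -2.35, -2.05 and -2.32 in skin, against 5.07, 5.05 and 5.39 in liver (difference -7.42, SE 0.21, adjusted p = 1.3e-06), with 2 of 3 skin arrays above background. Slc2a1 and Slc2a3, the carriers of many cells, were higher in skin (1.67 and 2.26, adjusted p = 0.0018 and 0.006). Hexokinases 1 and 2 (Hk1 and Hk2) were higher by 2.44 and 2.85, and Hk3 was not called, at -0.72 (adjusted p = 0.00061, 2.7e-05 and 0.073). Hk3 was called without skin WT 2 (-0.92, adjusted p = 0.049). Of the glycogen synthases, Gys1, the muscle form, was at least 41.3-fold higher in skin, and Gys2, the liver form, differed by -5.74 (adjusted p = 3.2e-06 and 6.9e-06). Glycogen phosphorylase differed by 9.06 for Pygm of muscle, 2.77 for Pygb of brain and -4.04 for Pygl of liver (adjusted p = 3.1e-06, 0.00022 and 7.1e-06). Slc2a3 was well above background on 2 of 3 liver arrays. Pygm was well above background on 1 of 3 liver arrays.

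Pkm, pyruvate kinase M, was higher by 3.92, and Pklr, the liver and red cell form, was at least 34.1-fold lower (adjusted p = 3.7e-05 for Pkm and 1.5e-06 for Pklr). Aldoa, an aldolase, was higher by 3.82, and Aldoc was not called (0.04, adjusted p = 4.1e-06 for Aldoa and 0.93 for Aldoc). Fbp2, the muscle fructose bisphosphatase, was at least 29.9-fold higher and Fbp1, of liver, lower at -5.41 (adjusted p = 4.2e-05 and 8.8e-06). Lactate dehydrogenase B (Ldhb) was higher by 4.01, Ldhd lower at -3.37, and Ldha not called (-0.12, adjusted p = 5.8e-06, 5.9e-06 and 0.69). The pyruvate kinases, fructose bisphosphatases and lactate dehydrogenases each held a form that was higher in skin and a form that was lower.

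The mitochondrial gatekeepers Cpt1b, of muscle, and Cpt1a, of liver, differed by 5.1 and -3.02, and Cpt1c was at least 3.19-fold higher (adjusted p = 4.7e-06 for Cpt1b, 4e-05 for Cpt1a and 0.00016 for Cpt1c). Fatty acid binding proteins followed: Fabp3, of muscle, and Fabp4, of fat cells, were higher (7.16 and 5.45), and Fabp1, of liver, Fabp2 and Fabp7 lower (-4.44, -7.31 and -5.21, adjusted p = 8.2e-05, 1e-05, 0.0005, 1.3e-05 and 0.00011). Fabp5, the epidermal form, was not tested. Gls2, the liver glutaminase, differed by -6.67, and Mat1a, the methionine adenosyltransferase of liver, by -6.76 (adjusted p = 3.1e-06 and 7.6e-06). The cytosolic HMG-CoA synthase Hmgcs1 was not called (-0.29, adjusted p = 0.32). Arg1, the liver arginase, was lower at -5.61 (adjusted p = 1.8e-06), and Arg2 was not tested. Fabp7 was well above background on 2 of 3 skin arrays.

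Water and glycerol channels were divided too. Aqp3, the glycerol channel of keratinocytes, differed by 8.42, with 1 of 3 liver arrays above background, Aqp7, of fat cells, was at least 21.8-fold higher and Aqp5, of sweat glands, higher by 2.15 (adjusted p = 0.00012, 9.6e-06 and 0.024). Aqp8, Aqp9 and Aqp11 were lower (-6.09, -4.78 and -4.55, adjusted p = 3.2e-06, 3e-06 and 3.8e-06), and Aqp1 of endothelium was not called (0.03, adjusted p = 0.96). The call of Aqp5 was lost without skin WT 1, skin WT 3, liver WT 2 or liver WT 3 (adjusted p = 0.056 to 0.071), and Aqp1 was called without skin WT 1 (0.54, adjusted p = 0.042). Of 10 carbonic anhydrases, Car6, Car12 and Car4 were at least 28.7-fold, at least 6.18-fold and at least 4.92-fold higher and Car13 higher by 5.07, while Car5a and Car8 were at least 25.2-fold and at least 21-fold lower (adjusted p at most 0.00046). Car1, Car2 and Car14 were lower by differences of -2.61, -0.94 and -2.27 (adjusted p = 0.00017, 0.029 and 0.00018), and the call of Car2 was lost without skin WT 2, skin WT 3, liver WT 1 or liver WT 3 (adjusted p = 0.066 to 0.1). For creatine, the kinases Ckmt2 and Ckb and the carrier Slc6a8 were higher (7.75, 1.38 and 2.74, adjusted p = 0.00023, 0.0017 and 0.00023), as Ckm was. The enzymes of its synthesis, Gatm and Gamt, were lower (-1.62 and -3.1, adjusted p = 0.0041 and 1.3e-05). The connexin Gja1 was at least 7.56-fold higher in skin (adjusted p = 9.4e-05), against the lower Gjb1 and Gjb2. Aqp5 and Ckmt2 were each well above background on 2 of 3 liver arrays. Car1 and Gatm were each well above background on 2 of 3 skin arrays.

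**Figure D5:**
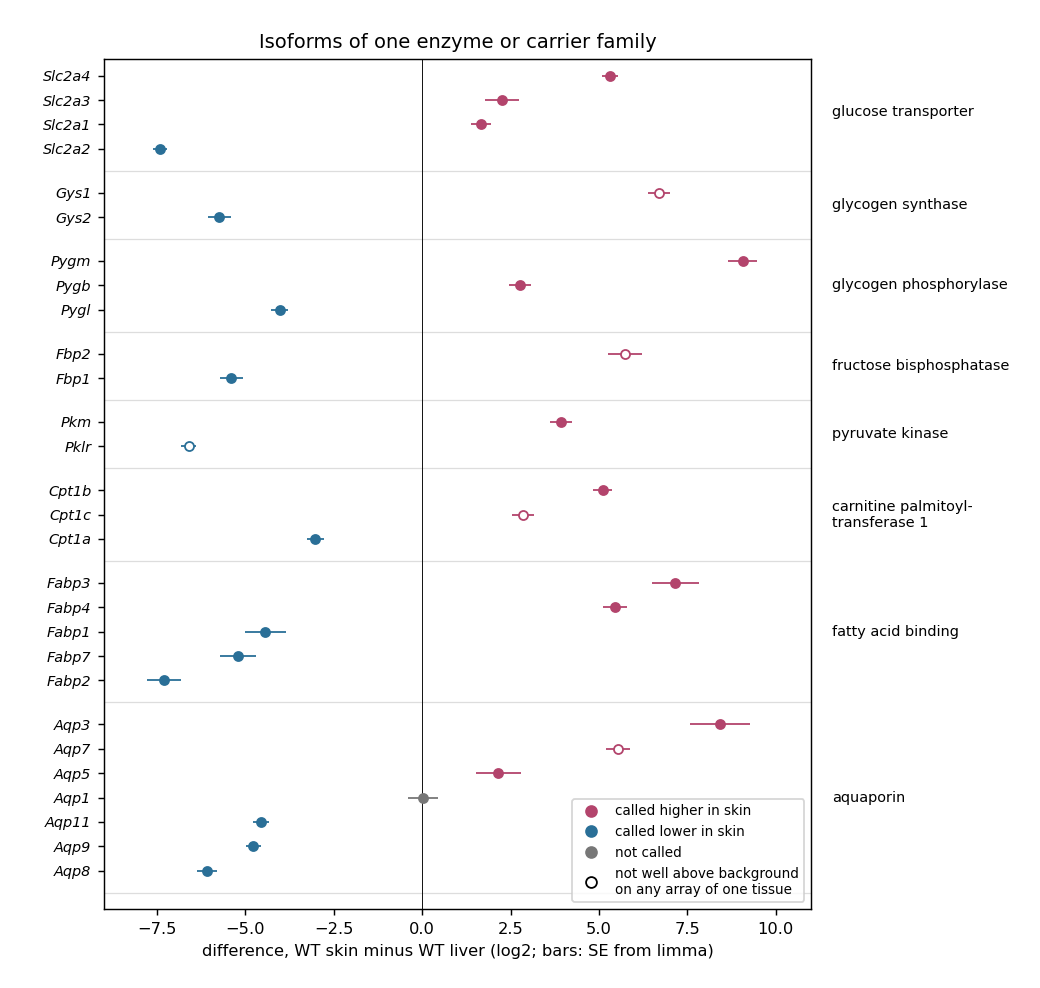
Differences, skin minus liver in log2 units with standard errors, for the members of 8 families of isoforms, 3 arrays of each tissue. Hollow points mark the fitted difference of genes not well above background on any array of one tissue, which is not their bound, and every family shown has members on either side of 0.

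Antioxidant and NRF2 target genes were higher for 11 of 41 and lower for 23 (median -1.18). Gpx3, the secreted glutathione peroxidase, was higher (4.6, adjusted p = 1.2e-05), and Cat, catalase, and Gclc, which limits glutathione synthesis, were lower (-3.36 and -4.63, adjusted p = 1.1e-05 and 3.5e-06). Nqo1 and Hmox1, often read as NRF2 reporters, were not called (-0.69 and 0.56, adjusted p = 0.067 and 0.14). Sources of oxidants were higher for 4 of 18 and lower for 9 (median -1.13), with Duoxa1, the maturation factor of dual oxidase, at 5.91 and Hao1, a peroxisomal oxidase of liver, at -7.26 (adjusted p = 1.9e-05 and 4.3e-06). Endoplasmic reticulum and secretion genes were lower for 24 of 30, none higher (median -1.42), such as P4hb, a protein disulfide isomerase (-2.59, adjusted p = 0.0002). Most subunits of oxidative phosphorylation were not called (29 of 47), with 15 lower and 3 higher (median -0.54). The 3 higher ones were the muscle isoforms of cytochrome oxidase subunits, Cox6a2, Cox8b and Cox7a1 (8.2, 7.83 and 4.19, adjusted p = 1.5e-05, 3.1e-05 and 1.1e-05). The count of lower subunits was 7 without liver WT 1, 9 without liver WT 2 and 31 without both skin WT 1 and liver WT 3. Duoxa1 was well above background on 2 of 3 liver arrays. Hao1 was well above background on 2 of 3 skin arrays.

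The JNK pathway, the subject of the series, was compared here within wild-type mice. Mapk8, which encodes JNK1, had -4.14, -2.42 and -2.16 in skin, against -1.98, -1.68 and -1.61 in liver, and was not called (difference -1.15, SE 0.50, adjusted p = 0.088), with 2 of 3 skin arrays above background. It was called without skin WT 1 (-0.53, adjusted p = 0.0497) and without skin WT 3 (-1.52, adjusted p = 0.043). Mapk9, which encodes JNK2, had -1.63, -2.0 and -1.67 in skin, against 0.22, 0.47 and -0.71 in liver (difference -1.76, SE 0.33, adjusted p = 0.0031). Mapk10, the neural form, was not tested. The activating kinases Map2k4 and Map2k7 and the target Jun were not called (0.16, 0.68 and 0.60, adjusted p = 0.59, 0.065 and 0.07), and Map2k7 was called without skin WT 2 (0.87, adjusted p = 0.038). Of the JNK and AP-1 list 13 of 32 were higher, 4 lower and 15 not called (median 0.66; 7 were lower without both skin WT 1 and liver WT 3), with the AP-1 subunits Fosl2 and Fos higher (3.03 and 2.46, adjusted p = 0.0044 and 0.00068). Genes of the growth hormone and IGF axis were higher for 5 of 21 and lower for 10 (median -0.48). Igf1, made mainly by liver, differed by -3.68, and its binding proteins split, with Igfbp6 at 5.95 and Igfbp1 at -5.69 (adjusted p = 1e-05, 1.5e-06 and 0.0031). Fosl2 was well above background on 1 of 3 liver arrays. Igfbp1 was well above background on 1 of 3 skin arrays.

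Clock genes were higher for 3 of 16, lower for 6 and not called for 7 (median -0.62). Arntl, which encodes BMAL1, was higher (1.98) and Per2 and Dbp lower (-2.26 and -1.2, adjusted p = 0.0042, 0.0086 and 0.0052), and the hour of sampling is not given in the labels. Per2 differed by -0.65 with normexp background correction, and the call of Dbp was lost in the fit of all groups (adjusted p = 0.19, or 0.086 with the slide as a block). Only 1 clock gene was called higher without skin WT 1, skin WT 3, liver WT 1 or liver WT 3. Cell cycle genes were higher for 13 of 28 and lower for 2 (median 0.65). The higher ones included the inhibitors Cdkn2b and Cdkn1a (4.54 and 2.9, adjusted p = 7.6e-06 and 0.00046), and Mki67, of proliferating cells, was not called (0.96, adjusted p = 0.0502). Mki67 was called without skin WT 1 (1.36, adjusted p = 0.00055), and 4 cell cycle genes were then called lower. Interferon-induced genes were lower for 15 of 22 and higher for 1, Ifi27l2a (median -1.51). Oasl1 and Bst2, both antiviral effectors, differed by -3.98 and -3.49, and Ifi27l2a by 4.35 (adjusted p = 6.5e-06, 5.1e-06 and 8.7e-06). Chemokines and cytokines were higher for 13 of 29 and lower for 8 (median 0.59). Ccl8 and Ccl27a, a chemokine of keratinocytes, were higher (6.07 and 3.61), and Cxcl10 and Ccl5 lower (-3.73 and -3.11, adjusted p = 9.5e-06, 9.6e-06, 6e-05 and 0.00091). Per2 was well above background on 1 of 3 skin arrays. Cxcl10 was well above background on 2 of 3 skin arrays.

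Genes used as references for scaling were not uniformly level. Of 25 tested, 13 were not called, 4 were higher and 8 lower (median -0.49). Gapdh and Actb differed by 0.38 and 0.57 and were not called (adjusted p = 0.26 and 0.31). Departures included Reep5, a shaper of the endoplasmic reticulum, at 3.12, and Sdha, of succinate dehydrogenase, at -1.72 (adjusted p = 1.3e-05 and 0.00024). B2m, a chain of MHC class I, was lower (-0.89, adjusted p = 0.049) and turned to 0.31 (adjusted p = 0.92) in a fit of all groups with the slide as a block. Its call was lost without skin WT 3, liver WT 1, liver WT 2 or liver WT 3 (adjusted p = 0.06 to 0.14). Without liver WT 3, 2 members of the list were called higher.

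Among genes well above background on all 6 arrays, the leading skin genes were Krt17, a keratin of follicles and stressed epidermis, and Tnnt3, fast troponin T. Krt17 had 8.98, 7.8 and 8.08 in skin, against -3.08, -2.66 and -2.93 in liver (difference 11.17, SE 0.33, adjusted p = 1.3e-06), and Tnnt3 differed by 9.69 (adjusted p = 7.1e-05). Anxa8, an annexin of stratified epithelia, differed by 9.56, and Sbsn, suprabasin, by 9.41 (adjusted p = 1.5e-06 and 3.4e-05). The leading liver genes after Apob included Cyp3a41a at -7.83, Fabp2 at -7.31, and Baat, which conjugates bile acids, at -7.28 (adjusted p = 4.9e-06, 1.3e-05 and 1.5e-06). Pon1, the esterase of high density lipoprotein, differed by -7.17 (adjusted p = 1.3e-06). Large bounds were also those of other genes. Pou3f1, a POU factor of keratinocytes and nerve, and Mylk2, the skeletal myosin light chain kinase, were at least 643-fold and at least 606-fold higher, and Cyp2a22 and Klkb1, plasma prekallikrein, at least 169-fold and at least 121-fold lower (adjusted p = 5.4e-06, 3.1e-06, 2.4e-06 and, for Klkb1, 1.5e-06).

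The arrays lay on 4 slides. Skin WT 2 and liver WT 2 shared a slide, and so did skin WT 3 and liver WT 3. Skin WT 1 and liver WT 1 each lay on a slide without a wild-type array of the other tissue, though JNK1-deficient arrays of that tissue were on it. Of the 8014 called genes, 8008 (99.9%) had the same sign within both shared slides, whose 4 arrays are among the 6 that made the calls. The JNK1-deficient arrays of the same tissues, which the fit did not use, gave the same sign for 7935 (99%). The difference between the genotypes in the skin minus liver contrast was called for 8 of 14140 genes, with 1107 at an unadjusted p below 0.05. Probes of a gene can disagree: of 4624 genes with several detected probes, 650 had probes of opposite sign, 12 of them by at least 2-fold each way.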

How the data were processed

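Whole-tissue RNA of 3 wild-type skin and 3 wild-type liver samples was hybridised to 1-colour Agilent arrays. The deposited scanner output was made with Agilent Feature Extraction 10.7.3.1, per the file headers, and holds 1 processed intensity per spot, already background-corrected by that software. The authors' value table of the same arrays holds log2 values with column medians of 5.94, 5.92 and 5.92 in skin and 5.79, 5.80 and 5.83 in liver. It correlated with log2 scanner values at 0.986 to 0.992 per array. How it was normalized or centred stays unknown, and it served as an alternative. The submitters' processing notes name limma.

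Control spots and outlier flags were left out, spots of a probe were averaged, and log2 intensities were set relative to the 75th percentile of each array. Per gene name, the probe with the highest mean over the 6 arrays was used. Genes well above background on at least 3 of 6 arrays were tested (14140). limma 3.58.1 in R 4.3.3 fitted skin minus liver on the 6 arrays with a moderated test and Benjamini-Hochberg adjustment over all tested genes, and an adjusted p below 0.05 was a call. The number of arrays limits the precision. Folds against a tissue with no array well above background are bounds, for which the dim tissue was set, per array, at the higher of the lowest signal well above background and the dim probe's own signal. Paralogues with near-identical sequence may share probes. Gene names are RefSeq symbols found through the accession of the probe, or the name in the array file where none was found. The mm9 positions are those of the array design. In the fat levels and the fits of all groups 1 wild-type fat array was left out, whose scanner file resembled skin.

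The genes named were the leading 12 by difference and by bound in each direction, up to 6 called members of each list per direction, all members of the isoform and housekeeping lists, JNK genes, tissue markers, and members not called that show the spread of a list. Col7a1, Cyp7a1, Dsg1a, Hal, Hnf4a, Hpx, Lox, Mttp, Pkp2, Ryr1 and Uroc1 were named after their values were seen. Some genes that meet the rule are not reported here. Members and lists were chosen with earlier results of these data known. Replicate numbers were not taken as pairs, since the labels do not give the animal. The deviations of same-numbered arrays correlated at 0.185, 0.00983 and 0.142 (numbers 1, 2 and 3), and those of differently numbered arrays at -0.159 to 0.0958. The arrays numbered 2 and 3 also share slides across tissues, and those numbered 1 do not. Whether same-numbered arrays came from the same mouse was not tested. Alternatives were the scaling, background correction, filter, probe rule, value table, slide and replicate blocks, array weights, the other groups in the fit and leaving out arrays.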

Additional observations from a re-analysis of the deposited data

How the results depend on the processing

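All 3750 higher and 4264 lower calls refer to the 75th percentile of each array. With the median as the scale the counts were 3128 and 4992 and the median over all genes moved to -0.36, from quantile scaling came 4179 and 4137, and the authors' values gave 4418 and 3726 with a median of 0.02. Without a filter on dim probes 27561 genes were tested, with 4176 higher, 3803 lower and a median of 0.41. Leaving out 1 array gave 3272 to 3930 higher and 3450 to 4881 lower. Without skin WT 1 and liver WT 3, an alternative chosen after seeing the data, the counts were 4138 and 5383. Asking for at least a 4-fold difference left 2006 and 1646. The replicate block called 3694 and 4293, and 7606 of the 8014 calls were kept. Of the named genes 580 stayed on the same side of the threshold, 5 lost their call and 5 gained one, Mapk8 among these. The slide as a block called 3482 and 4039, and array weights 4498 and 5634. Of the named genes, B2m turned to 0.31 in the fit of 20 arrays with the slide as a block. With probes averaged Car3 turned to -0.68, Dst to 4.77 and Hoxb6 to 1.04. Under the other alternatives run, no call of a named gene turned to the opposite direction. Car2 and Cd68 lost their calls most often, in 11 of 19 settings. Tissues differ in 56.7% of the tested genes, so the percentile of each array is itself not a fixed point, and small differences rest on it. With 3 arrays a tissue and no animal identity in the labels, only the spread between these arrays is measured. Probes not well above background give a bound at best, and the bounds printed hold for the main setting only. Across the alternatives the fitted difference fell to 8.77 for Defb8 and 8.77 for Krt1, below their bounds of 10.46 and 10.35 in log2 units. The smallest fitted difference was 1.99 for Lox and 3.11 for Vdr.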

Other observations

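Some of the genes with large differences lay side by side. On the mm9 positions of the array design, 30 runs of at least 4 neighbouring tested genes were all at least 4-fold higher in skin (181 of 2006 such genes), and 38 runs were all at least 4-fold lower (200 of 1646). The number of runs that chance would give was not tested. The longest run was on chr3:92241009-92672393, where 18 genes of the epidermal differentiation complex, among them Sprr1b, Ivl, Lce1a1 and Kprp, had a median difference of 9.72. A further 10, among them Flg2, Flg, Hrnr, Rptn and Tchh, followed at chr3:92818192-93330201 with a median of 6.72. A run of 16 at chr11:99495515-99993399 (median 6.14) held keratin-associated proteins and type I hair keratins, and also Krt13 and Krt15. One of 13 at chr16:88647206-89084468 (median 5.82) held keratin-associated proteins. Type II keratins made a run of 12 at chr15:101264040-101776648 (median 7.75). The kallikrein proteases Klk5 to Klk12 formed a compact run of 8 at chr7:51028710-51106228 (median 5.70).

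The longest runs lower in skin were 11 glucuronosyltransferases and sulfotransferases at chr5:87319553-87984717 (median -6.76), 9 major urinary proteins and neighbours at chr4:59969824-61744548 (median -5.48), 8 genes with the Serpina cluster at chr12:104689276-105221107 (median -5.30) and 8 Cyp2c genes at chr19:39116674-40228028 (median -4.93). Runs of 7 followed, with the Cyp2d genes at chr15:82204377-82620634 (median -5.52), those with the Nat8 family at chr6:85767345-85879678 (median -5.51) and those with the Ces2 family at chr8:107231460-107617422 (median -5.93). Others of the lower runs held no such family, such as that of Dpp4, Ifih1, Gca and Fign on chromosome 2 (median -2.85). Close copies in these runs may share probe signal, so neighbours are not independent measurements. By chromosome, genes at least 4-fold higher in skin made up 18.5% of those tested on chromosome 3, 17.6% on 15 and 16.7% on 11, against 14.2% of all tested genes.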
